A study of Mus musculus with 16 samples.

Results

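Complement is a group of plasma and membrane proteins that tags cells and debris for removal, and 9 of its genes were examined in mouse cerebellum: C1qa, C1qb, C1qc, C4b, C3, C3ar1, C5ar1, Serping1 and Cd59a. Their probes were found by matching the accession of every non-control probe on the array to these genes, which gave 12 of 56605 probes, for 9 of 22911 named genes. Of the 12 probes, 11 (8 genes) were bright enough to be tested, and the probe of C5ar1 was not. RNA of the cerebellar cortex had been hybridised to 16 one-colour (Cy3) Agilent arrays, 1 per mouse, where a brighter spot means that more labelled RNA bound the probe. Values are log2 signals after quantile normalisation over the 16 arrays.

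The mice came from the strain B6;129S4-Atmtm1Bal/J and were either wild type (WT) or homozygous for a targeted allele of Atm, the gene of a kinase that responds to DNA breaks (Atm-/-). From 6 weeks of age they drank plain water (veh) or water with nicotinamide riboside (NR, a precursor of NAD) at 3.5 mg/ml (12 mM) for 2 months, and tissue was taken at 3.5 months. Each of the 4 groups held 4 mice: WT veh and Atm-/- veh on water, WT NR and Atm-/- NR on the compound. The loss of Atm was present from conception and in every cell, so the groups do not separate effects within the cerebellum from those of other organs.

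Some properties of the whole set of arrays bear on every value below. The number of probes well above background ran from 34945 to 42559 per array, and no spot was saturated. All 8 Purkinje cell and all 8 granule cell markers looked up were bright enough to be tested. A probe of Atm, read as a check of the labels, lay between 8.52 and 9.03 on the 8 WT arrays and between 7.72 and 8.08 on the 8 Atm-/- arrays. The other Atm probe was brighter and less clear, at 8.88 to 9.27 in WT and 8.61 to 9.23 in Atm-/-. Where these probes lie relative to the targeted part of Atm was not analysed here. All mice were labelled male, but 4 arrays (WT NR 1 and 4, with array 3 of Atm-/- veh and array 4 of Atm-/- NR) showed Xist and no Y-linked signal, so values are also given for the other 12 arrays. Slide 1 carried every WT array and slide 2 every Atm-/- array, and an effect of genotype cannot be told apart from one of slide. Veh arrays took row 1 and NR arrays row 2 of both slides, and the same holds for treatment and row.

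In the classical pathway, C1q binds to a target and starts a cascade in which C4 and then C3 are cleaved, and fragments of C3 stay on the target as an opsonin. In brain, C1q is made mainly by microglia, while C3 and C4 are also made by astrocytes, and C1q and C3 are known for marking synapses that microglia then engulf. The small fragments C3a and C5a signal through the receptors C3ar1 and C5ar1. Serping1 encodes the C1 inhibitor, which stops the proteases of the C1 complex, and Cd59a encodes a membrane protein that blocks the final pore.

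RefSeq (GRCm38.p6) gave promoter sequence for 6 of the 9 genes. The 250 bases before the start are shown for C1qb and C1qc, whose signals moved together, and for C3ar1, the receptor whose signal passed the test below. Capitals mark AGGAAG, a PU.1-type motif of the ETS factors, on either strand (CTTCCT where reversed), and TATAAA. Shorter forms of the ETS motif, such as GGAA, were not searched.
C1qb: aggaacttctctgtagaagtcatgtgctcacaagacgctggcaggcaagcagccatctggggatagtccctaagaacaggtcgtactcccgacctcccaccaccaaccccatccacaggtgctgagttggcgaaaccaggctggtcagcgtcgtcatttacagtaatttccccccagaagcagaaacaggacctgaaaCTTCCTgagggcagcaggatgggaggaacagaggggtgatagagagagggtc
C1qc: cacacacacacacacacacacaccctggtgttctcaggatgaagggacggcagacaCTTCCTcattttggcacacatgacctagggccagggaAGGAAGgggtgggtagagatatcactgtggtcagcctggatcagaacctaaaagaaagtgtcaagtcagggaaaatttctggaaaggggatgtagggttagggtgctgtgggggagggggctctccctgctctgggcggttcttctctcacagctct
C3ar1: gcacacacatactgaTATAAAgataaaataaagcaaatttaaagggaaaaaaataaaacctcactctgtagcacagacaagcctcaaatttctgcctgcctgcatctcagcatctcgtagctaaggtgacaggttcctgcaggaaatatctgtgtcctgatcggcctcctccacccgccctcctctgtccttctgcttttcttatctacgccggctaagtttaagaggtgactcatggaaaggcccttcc
The first lies at chr4:136886201-136886450, the second at chr4:136892915-136893164 and the last at chr6:122856158-122856407, all on the minus strand. AGGAAG occurred 1 time before C1qb, 2 times before C1qc and 3 times before C5ar1 (a pair of these overlap). This full motif did not occur in these windows of C3ar1, C3 and Cd59a. Of 32851 promoters of this length, 29.5% held AGGAAG on either strand. The TATA motif was present only in the window of C3ar1 among these 6 genes, 235 bases before the start, and in 12.4% of all promoters. A match is a run of letters and not a measured binding site.

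**Figure D1:**
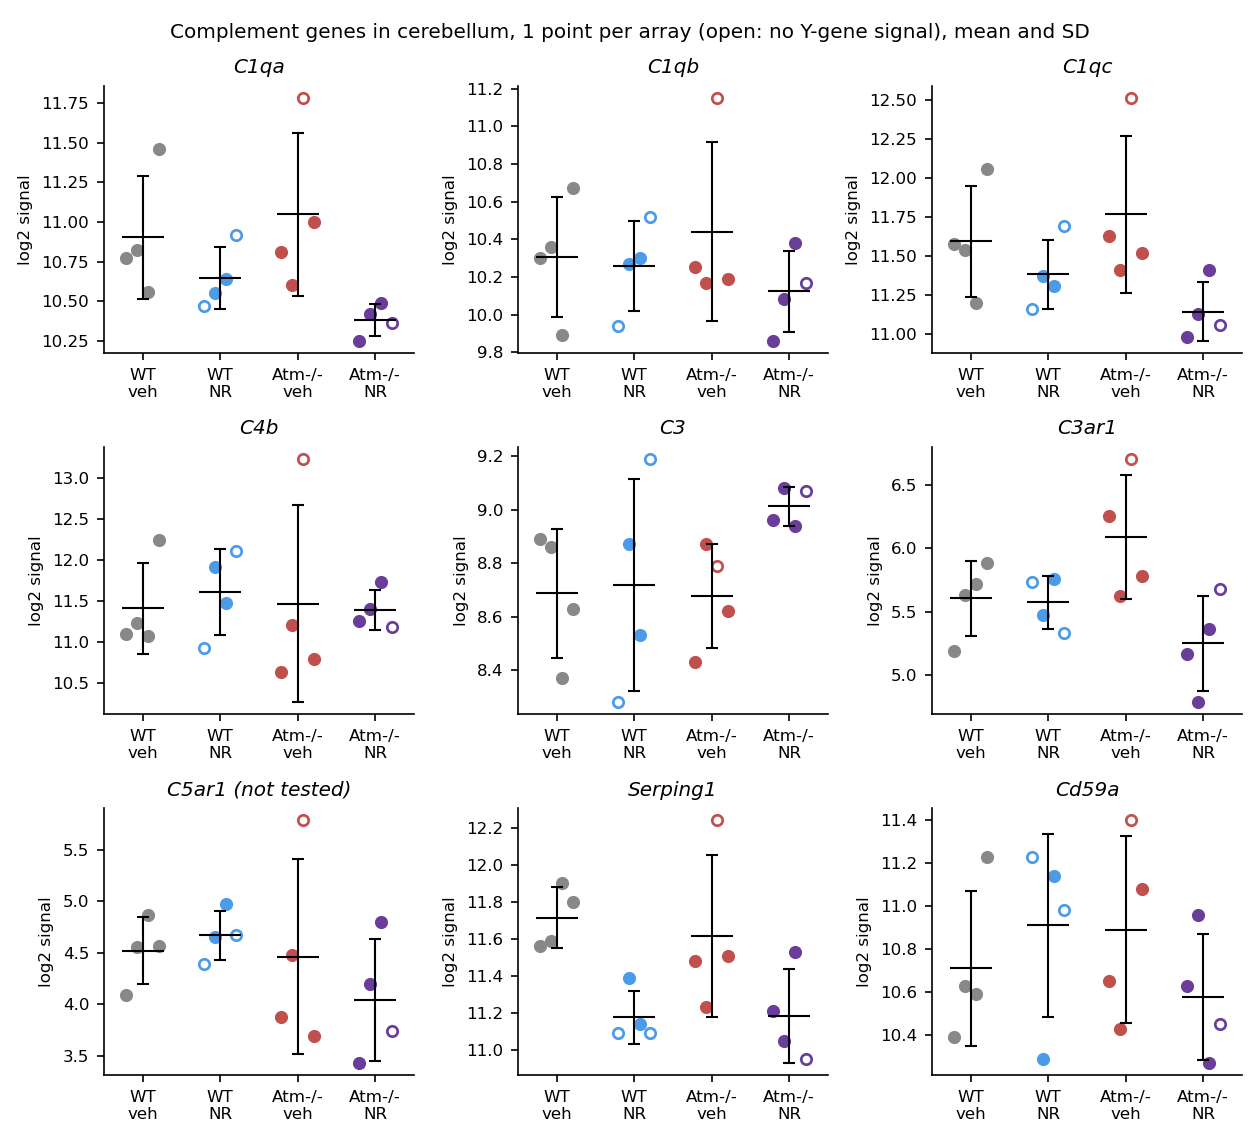
Log2 signal of the 9 complement genes, 1 point per array, with the mean and SD of 4 arrays per group as black bars. Open points are the 4 arrays without Y-linked signal, and C5ar1 was below the limit for testing and is shown on a scale normalised over all probes. In Atm-/- veh, array 3 is the highest of the 4 for every gene but C3.

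The 3 chains of C1q gave the same picture in all groups, with the widest spread in Atm-/- veh and the lowest mean in Atm-/- NR. C1qa stood at 10.77, 10.82, 10.56 and 11.46 in WT veh, at 10.47, 10.55, 10.64 and 10.92 in WT NR, at 10.81, 10.60, 11.78 and 11.00 in Atm-/- veh and at 10.25, 10.42, 10.49 and 10.36 in Atm-/- NR. Every Atm-/- NR array was lower than every Atm-/- veh array, and the groups of the other comparisons overlapped. C1qc stood at 11.58, 11.54, 11.20 and 12.06 in WT veh, at 11.16, 11.37, 11.31 and 11.69 in WT NR, at 11.63, 11.41, 12.51 and 11.52 in Atm-/- veh and at 10.98, 11.13, 11.41 and 11.06 in Atm-/- NR. Its Atm-/- groups only touched, at 11.41. C1qb stood at 10.30, 10.36, 9.89 and 10.67 in WT veh, at 9.94, 10.27, 10.30 and 10.52 in WT NR, at 10.25, 10.17, 11.15 and 10.19 in Atm-/- veh and at 9.86, 10.08, 10.38 and 10.17 in Atm-/- NR, and no pair of its groups was apart.

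In Atm-/- mice, NR went with a C1qa difference of -0.67 (SE 0.23, a ratio of 0.63), a C1qc difference of -0.62 (SE 0.23, a ratio of 0.652) and a C1qb difference of -0.32 (SE 0.22, a ratio of 0.803). None passed in limma after adjustment over 37253 probes, with adjusted p = 0.0803 for C1qa, 0.101 for C1qc and 0.375 for C1qb. Array Atm-/- veh 3 carried part of these differences: without it they were -0.42, -0.37 and -0.08, in the same order, and over the 12 arrays with Y-linked signal -0.42, -0.34 and -0.09. In WT mice the NR differences were -0.26 for C1qa, -0.22 for C1qc and -0.05 for C1qb, with adjusted p of 0.851, 0.880 and 0.987 (limma). Atm loss alone gave 0.14 for C1qa, 0.17 for C1qc and 0.13 for C1qb, and these became -0.10, -0.08 and -0.10 without Atm-/- veh 3. In bulk tissue, fewer cells of a type and less RNA per cell cannot be told apart.

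Over the 16 arrays C1qa and C1qc correlated at r = 0.97, C1qb and C1qc at 0.93, and C1qa and C1qb at 0.88. These are descriptions, since the arrays share their slide, normalisation and groups. Within groups the same pairs gave 0.95, 0.97 and 0.91. Without Atm-/- veh 3 they were 0.94, 0.86 and 0.75 over 15 arrays.

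C4b, the main mouse C4 gene, varied more within groups than any other tested member, and no comparison of its groups passed the test. Its brighter probe stood at 11.10, 11.23, 11.08 and 12.24 in WT veh, at 10.93, 11.92, 11.48 and 12.11 in WT NR, at 10.64, 11.21, 13.23 and 10.80 in Atm-/- veh and at 11.26, 11.40, 11.73 and 11.18 in Atm-/- NR. The 13.23 of Atm-/- veh 3 lay above all other arrays, and the rest of that group ran from 10.64 to 11.21. The NR difference in Atm-/- mice was -0.07 (SE 0.47, 95% interval -1.09 to 0.94, limma adjusted p = 0.940), and it was 0.51 without Atm-/- veh 3. Atm loss gave 0.06 (adjusted p = 0.966, limma), or -0.53 without that array. The dimmer C4b probe followed the brighter one (r = 0.72 over 16 arrays) except on Atm-/- NR 2, where it was 10.70 and the gap between the probes was 0.70, against 2.35 or more on every other array. C4a is a near-identical neighbour of C4b, and how far its RNA binds the C4b probes was not tested. The probe of C4a was highest, at 8.17, again on Atm-/- veh 3.

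C3, the component on which all complement routes meet, was the tested member with a higher mean under NR in Atm-/- mice. Its brighter probe stood at 8.89, 8.86, 8.37 and 8.63 in WT veh, at 8.28, 8.87, 8.53 and 9.19 in WT NR, at 8.43, 8.87, 8.79 and 8.62 in Atm-/- veh and at 8.96, 9.08, 8.94 and 9.07 in Atm-/- NR. All 4 Atm-/- NR arrays lay above all 4 Atm-/- veh arrays and within a range of 0.14, the tightest group of any member. The difference of 0.33 (SE 0.17, a ratio of 1.26) did not pass in limma (adjusted p = 0.233). The dimmer C3 probe gave 0.96 (SE 0.58, adjusted p = 0.305 in limma) with the same tight Atm-/- NR group at 8.86 to 9.01, while single arrays of the other groups were as low as 7.08, 6.57 and 6.58. The C3 difference was -0.01 with Atm loss, which turned to 0.09 under scaling to the 75th percentile, and 0.03 with NR in WT.

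**Figure D2:**
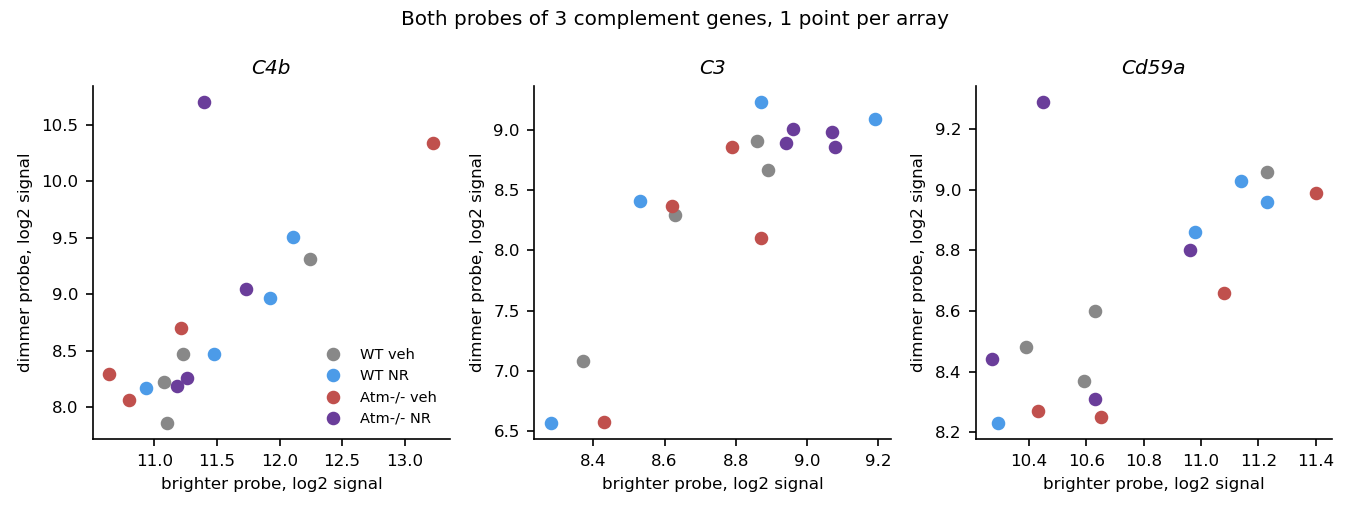
Log2 signal of the dimmer against the brighter probe of C4b, C3 and Cd59a, 1 point per array, coloured by group. The C4b point of Atm-/- NR 2 and the Cd59a point of Atm-/- NR 4 stand off the line of the others, with probe gaps of 0.70 and 1.16.

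C3ar1, the receptor for C3a on microglia and other myeloid cells, was the member that passed the test in Atm-/- mice under NR. It stood at 5.19, 5.63, 5.72 and 5.88 in WT veh, at 5.73, 5.47, 5.76 and 5.33 in WT NR, at 6.25, 5.62, 6.70 and 5.78 in Atm-/- veh and at 5.17, 4.79, 5.36 and 5.68 in Atm-/- NR. The Atm-/- groups overlapped at 1 array each, 5.62 against 5.68. The fall was by 0.84 on the log2 scale (SE 0.24, 95% interval -1.35 to -0.33, a ratio of 0.559), with an adjusted p of 0.0432 in limma. The probe is dim, and it was well above background on 14 of 16 arrays, the exceptions being Atm-/- NR 2 and Atm-/- NR 3. The call was lost when any 1 array other than WT veh 1, WT veh 4, Atm-/- veh 2 or Atm-/- NR 4 was left out, with limma's adjusted p then between 0.0504 and 0.118. Without Atm-/- veh 3 the difference was -0.63 (adjusted p = 0.102, limma), and over the 12 arrays with Y-linked signal it was -0.78 (adjusted p = 0.0894, limma). With normexp background correction the difference was -0.30 and was not called (adjusted p = 0.117, limma).

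Atm loss without NR gave a C3ar1 difference of 0.48 (SE 0.24, adjusted p = 0.367, limma), and NR in WT mice gave -0.03 (adjusted p = 0.994, limma), which turned to 0.07 under scaling to the 75th percentile. The difference between the NR effects of the genotypes was -0.81 (SE 0.34) and passed an unadjusted threshold of 0.05, but its adjusted p was 0.839 in limma. A genotype dependence of the NR effect on C3ar1 was thus not shown. C5ar1, the receptor for C5a, was well above background on 4 of 16 arrays (WT veh 3, WT NR 2, WT NR 3 and Atm-/- veh 3), and so it was not tested. Where no filter on dim probes was used, its NR difference in Atm-/- mice was -0.42 (SE 0.40, adjusted p = 0.563, limma).

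Serping1, the C1 inhibitor, had lower means under NR in both genotypes, by amounts that did not pass the adjusted test. It stood at 11.56, 11.59, 11.90 and 11.80 in WT veh, at 11.09, 11.39, 11.14 and 11.09 in WT NR, at 11.48, 11.23, 12.24 and 11.51 in Atm-/- veh and at 11.21, 11.05, 11.53 and 10.95 in Atm-/- NR. The WT groups did not overlap, with WT NR lower. The difference in WT was -0.53 (SE 0.19, a ratio of 0.691, adjusted p = 0.571 in limma) and in Atm-/- it was -0.43 (SE 0.19, a ratio of 0.742, adjusted p = 0.152 in limma). The means of WT NR and Atm-/- NR were both 11.18. Without Atm-/- veh 3 the Atm-/- difference was -0.22. Over the 12 arrays with Y-linked signal it was -0.15, and the WT difference was -0.44. The sum of 8 markers of meningeal fibroblasts, which also make Serping1, ran from 14.54 to 15.55 in WT veh and from 14.13 to 14.49 in WT NR, and its part in the WT difference was not tested.

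Cd59a, which protects a cell's own membrane from the final pore, had no comparison of groups that passed the test. Its brighter probe stood at 10.39, 10.63, 10.59 and 11.23 in WT veh, at 11.23, 10.29, 11.14 and 10.98 in WT NR, at 10.65, 10.43, 11.40 and 11.08 in Atm-/- veh and at 10.63, 10.96, 10.27 and 10.45 in Atm-/- NR. All groups overlapped, and the NR differences were -0.31 in Atm-/- (SE 0.26, adjusted p = 0.456, limma) and 0.20 in WT (SE 0.26, adjusted p = 0.907, limma). Its dimmer probe gave 0.17 and 0.14 for the same comparisons, so the probes had opposite signs in Atm-/- mice. For the brighter probe the Atm-/- difference was -0.14 without Atm-/- veh 3 and -0.10 over the 12 arrays with Y-linked signal, and the WT difference over those 12 arrays was 0.01. On Atm-/- NR 4 the gap between the probes was 1.16, against 1.82 or more elsewhere.

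**Figure D3:**
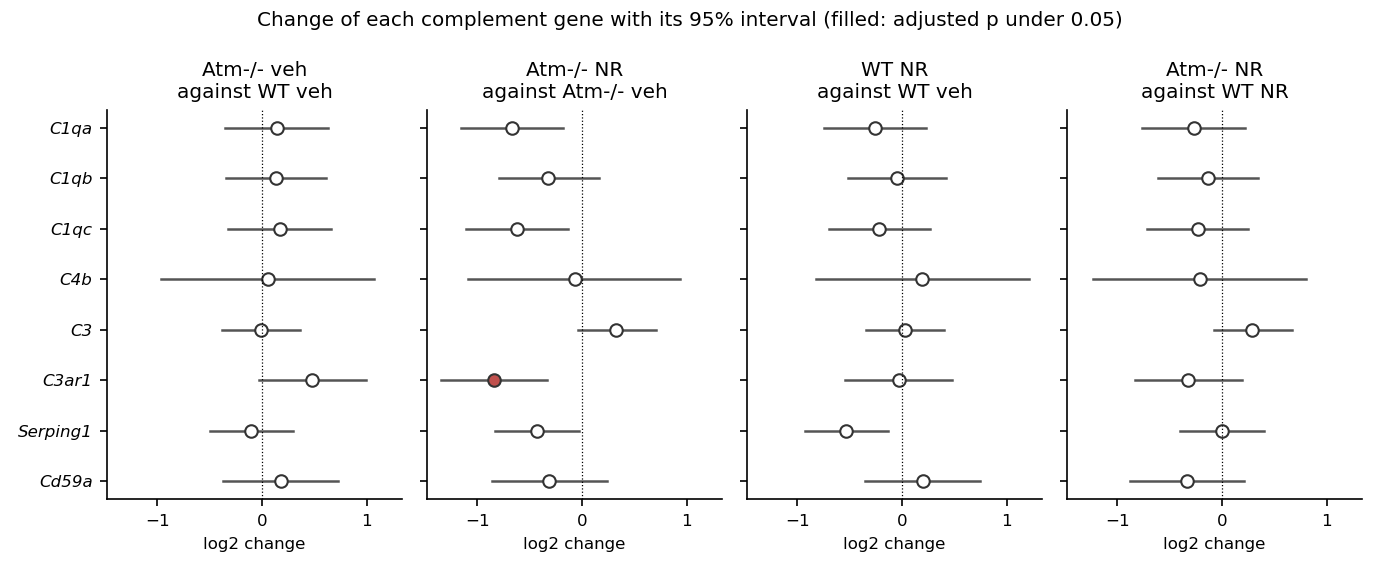
Log2 change of each tested complement gene with its 95% interval from limma in 4 comparisons, with the filled point marking an adjusted p under 0.05. C3ar1 in Atm-/- NR against Atm-/- veh (-0.84) is the filled point, and in that comparison C3 (0.33) is the 1 of 8 genes to the right of 0.

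Counted over the 8 tested members, NR in Atm-/- mice gave 1 call (C3ar1, lower), where 9.04% of all 37253 probes were called and 4.48% were called lower. A further 3 members, C1qa, C1qc and Serping1, were lower at an unadjusted p under 0.05, which makes 4 of 8 lower and 0 higher. Over all probes 27.3% passed that threshold, 14% lower and 13.2% higher. The groups were apart for C1qa (lower) and C3 (higher), 2 of 8, against 20.2% of all probes (9.09% lower and 11.1% higher). The median member change was -0.37, against -0.00084 over all probes, with 7 of 8 members below 0, where 50.1% of probes were. Without Atm-/- veh 3 the median was -0.18, and over the 12 arrays with Y-linked signal -0.12, with 6 of 8 members below 0 in both.

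NR in WT mice gave 0 calls among the members and 0% over all probes in limma, and 1 member, Serping1, had an unadjusted p under 0.05, where 7.62% of probes did. It was also the 1 member whose groups were apart, against 4.09% of probes (2.49% lower). The methods' t-test called Serping1 at its own threshold, where 6.65% of probes passed, and 0 members after Benjamini-Hochberg adjustment, where 0 probes passed. The median member change was -0.04, with 5 of 8 members below 0, where 53.2% of probes were.

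For Atm loss without NR, limma called 0 members, where 0.0537% of probes were called, and 0 members had an unadjusted p under 0.05, where 14.6% of probes did. The methods' t-test called 0 as well, where 11.7% of probes passed at its own threshold. No member had groups that were apart, where 7.6% of probes did. The median change was 0.14, with 2 of 8 members below 0, where 50.7% of probes were. This direction rested on Atm-/- veh 3: without it the median was -0.09, with 6 of 8 members below 0. Under NR, Atm-/- against WT mice likewise had 0 calls (0.0537% of probes) and 0 members at an unadjusted p under 0.05 (5.21% of probes). The methods' t-test gave 0 members at its own threshold (6.42% of probes). The median was -0.22, with 6 of 8 members below 0 (49.7% of probes). No groups were apart there, against 4% of probes. The comparisons share arrays, so their values are set side by side and not against each other.

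The test of a difference between the NR effects gave 0 calls in limma (0% of probes) and C3ar1 alone at an unadjusted p under 0.05 (5.27% of probes), with 6 of 8 members below 0 (49.1% of probes). The test of any difference over the 4 groups gave 0 calls among the members, where 4.84% of probes were called, and its smallest adjusted p was 0.132, for Serping1. At an unadjusted p under 0.05 it held C3ar1 and Serping1, 2 of 8 members, against 23.8% of probes.

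Ordered by their group means, C1qa, C1qb, C1qc and C3ar1 were highest in Atm-/- veh and lowest in Atm-/- NR. The top place of the C1q chains rested on Atm-/- veh 3, without which C1qa, C1qb and C1qc were at -0.10, -0.10 and -0.08 relative to WT veh, while C3ar1 was at 0.28. For C3ar1 the first and last steps, 0.48 and 0.32, exceeded their pooled SDs of 0.403 and 0.30, and the WT groups between did not part. For C1qa, C1qb and C1qc the top 2 groups, Atm-/- veh and WT veh, were less than 1 pooled SD apart, while the step from WT NR to Atm-/- NR exceeded it for C1qa (0.27 against 0.154) and C1qc (0.23 against 0.205). For C3 the step from Atm-/- NR to the next group (0.29) was about its pooled SD of 0.287, and the other 3 groups lay between 8.68 and 8.72. No neighbours differed by as much as their SD for C4b and Cd59a. Serping1 fell into a veh pair and an NR pair, with a step of 0.43 between them against a pooled SD of 0.356. The veh pair rested on Atm-/- veh 3. Without it Atm-/- veh was at -0.31 relative to WT veh, and Atm-/- NR at -0.22 relative to Atm-/- veh.

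**Figure D4:**
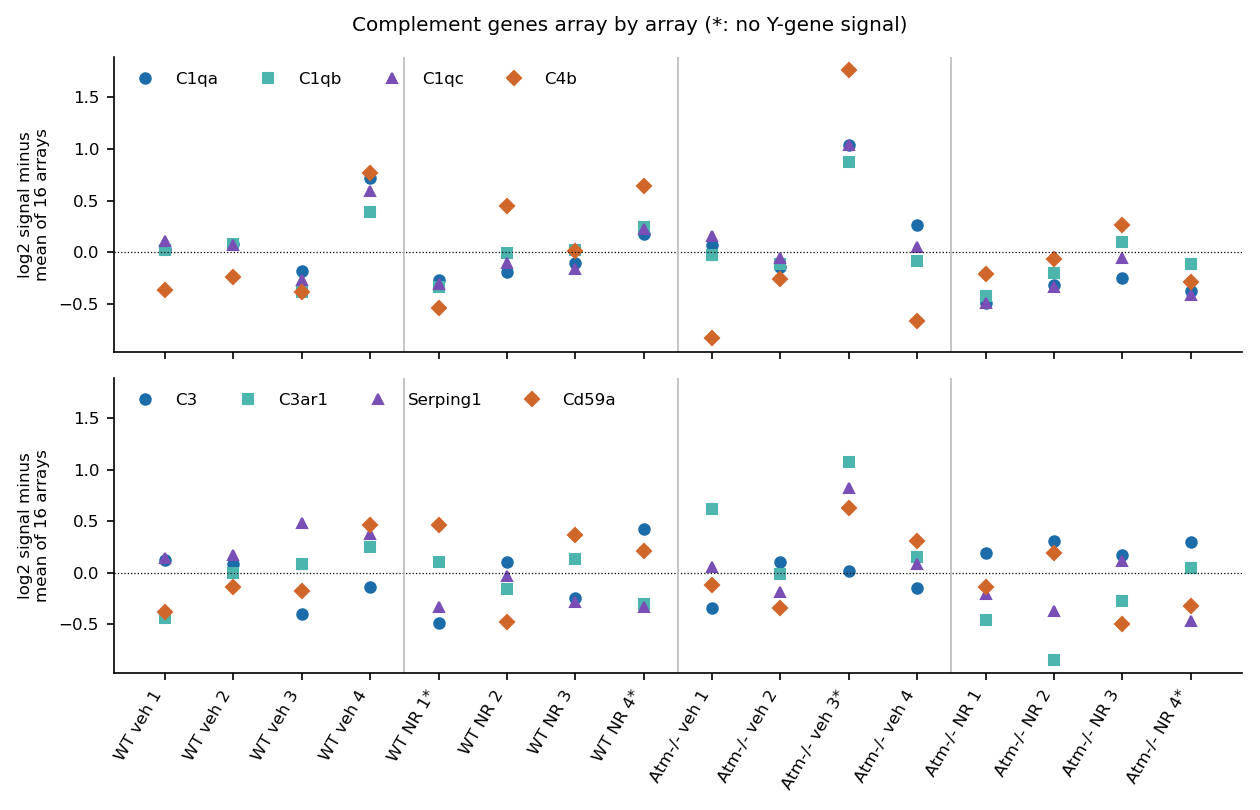
Log2 signal of each tested complement gene minus its mean over 16 arrays, 1 column per array, with groups parted by grey lines and asterisks at arrays without Y-linked signal. On Atm-/- veh 3, C4b is 1.76, C3ar1 1.07, C1qa and C1qc 1.04 above their means, while C3 is 0.02 above its own.

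A single array, Atm-/- veh 3, was the highest of all 16 for 7 of 8 members (all but C3), where it was the highest for 8.7% of all probes. It is an array without Y-linked signal. On it the summed level of 5 red blood cell markers was 19.95, against at most 18.76 on the other arrays, that of 11 endothelial and mural markers was 16.73 against at most 16.18, and that of 19 reactive astrocyte genes was 16.68 against at most 15.98. Its sum of 17 microglia markers, 17.79, lay within the range of the other arrays (17.34 to 17.86). Siglech alone made 55.2% to 76.8% of that sum, so it says little of the other microglia markers on this array. Without Siglech the sums ran from 15.75 to 16.50 in Atm-/- veh and from 15.84 to 16.60 in WT veh. They ran from 15.92 to 16.32 in WT NR and from 15.97 to 16.05 in Atm-/- NR. The part of these levels in the members' values was not tested.

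**Figure D5:**
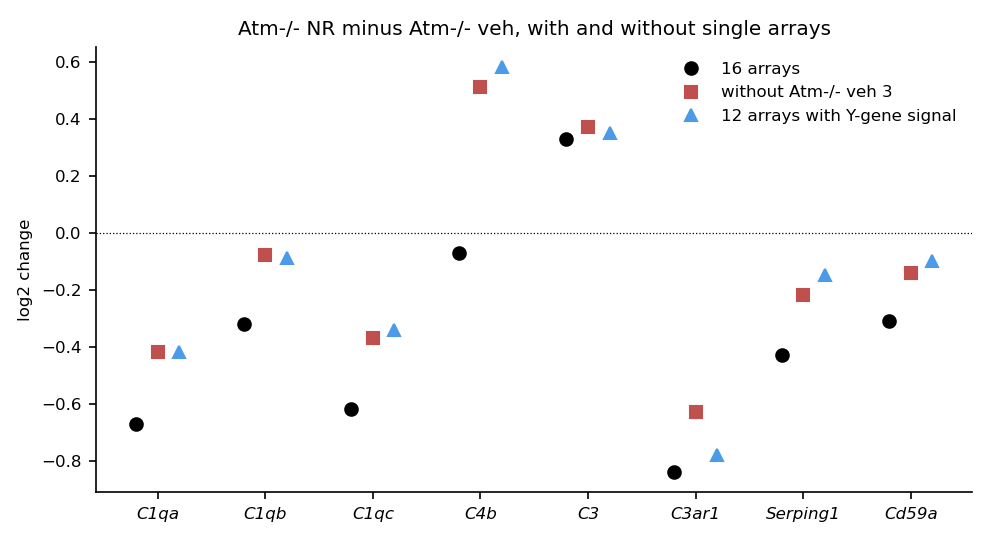
Log2 change under NR in Atm-/- mice for each tested complement gene over all 16 arrays (circles), without Atm-/- veh 3 (squares) and over the 12 arrays with Y-linked signal (triangles). C1qb moves from -0.32 to -0.08 and C4b from -0.07 to 0.51 without Atm-/- veh 3, while C3 stays at 0.33 and 0.37.

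Of the other complement genes on a list of 53, 36 were tested, and 4 of them were called in Atm-/- NR against Atm-/- veh, where 9.04% of all probes were. In no other comparison of a pair of groups was a gene of these lists called by limma, where at most 0.0537% of all probes were. Cd55, a membrane protein that breaks up C3 convertases, was higher by 0.78 (SE 0.18, adjusted p = 0.0223, limma): its arrays ran from 8.08 to 8.13 in Atm-/- veh and from 8.57 to 9.27 in Atm-/- NR. Susd4, a membrane regulator of complement that is abundant in brain, was higher by 0.29 (SE 0.069, adjusted p = 0.0219, limma), from 14.99 to 15.24 in veh and from 15.29 to 15.46 under NR. These groups were apart for both regulators, as they were for 20.2% of all probes (11.1% higher). Leaving out each array in turn, a check added once the values had been seen, kept the calls in 12 of 16 fits each. Cd55 was not called without Atm-/- veh 1 or 4 or Atm-/- NR 2 or 3 (adjusted p up to 0.0734, limma), nor Susd4 without Atm-/- veh 1 or 3 or Atm-/- NR 3 or 4 (adjusted p up to 0.0719, limma).

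The properdin gene Cfp, whose product stabilises the alternative C3 convertase, fell by 0.52 (SE 0.15, adjusted p = 0.0479, limma), with veh arrays at 11.48 to 11.67 and NR arrays at 10.88 to 11.28. Its call was kept in 4 of those 16 fits, the arrays left out being WT veh 3, WT veh 4, WT NR 1 and WT NR 3, and limma's adjusted p reached 0.135 in the others. Lrp1, a scavenger receptor to which C1q has been reported to bind, fell by 0.54 (SE 0.092, adjusted p = 0.00882, limma), with veh arrays at 13.05 to 13.28 and NR arrays at 12.44 to 12.77. It was called in all 16 of those fits (adjusted p up to 0.0361, limma) and also over the 4 groups (adjusted p = 0.0270, limma F test). None of the 4 genes passed for the difference between the NR effects, where Cd55 gave 0.92 (adjusted p = 0.839, limma).

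By list, of 10 tested genes that start the classical and lectin routes 0 were called under NR in Atm-/- mice (2 lower at an unadjusted p under 0.05, median change -0.13). Of 5 in the alternative and terminal routes 1 was called (lower, median 0.01), of 13 other regulators 2 were called (both higher, median 0.11) and of 8 other receptors 1 (lower, median -0.44, with 7 of 8 below 0). The median over all named genes was 0.036. Over all probes 9.04% were called in this comparison (4.48% lower), 14% were lower at an unadjusted p under 0.05, and 50.1% were below 0. For Atm loss alone the 4 lists gave 0 calls (0.0537% of probes), with medians of 0.15, 0.03, -0.12 and 0.14 in the same order against -0.028. For NR in WT mice they gave 0 calls (0% of probes), with medians of -0.08, -0.13, -0.05 and -0.09 against -0.006.

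The genes at the ends of these lists did not pass the test, apart from those above. Atm loss put C1rb, a C1 protease gene, at 0.75 (SE 0.44, adjusted p = 0.438, limma) and the collectin Colec12 at 0.69 (SE 0.30, adjusted p = 0.311, limma), with Csmd1 at -0.71 (adjusted p = 0.330, limma) at the other end. The Csmd1 value rested on WT veh 4, at 9.89 against 8.16 to 8.22 on the other WT veh arrays, and was -0.28 without it. NR in Atm-/- mice put Colec12 at -0.93 (adjusted p = 0.0653, limma) and Itgam, a chain of complement receptor 3, at -0.59 (adjusted p = 0.0796, limma), and the C5 gene Hc at 0.63 (adjusted p = 0.476, limma). NR in WT mice put C2, which joins C4 in a convertase, at -0.61 (adjusted p = 0.652, limma), Masp2 at -0.43, C1rb at 0.72 and Fcna at 0.40. The last pair were 0.22 without WT NR 2 and 0.04 without WT NR 4, in that order.

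The cerebellins and C1q-like proteins share the C1q domain but work at synapses, and 5 of 8 were tested. None was called in any comparison by limma, where up to 9.04% of all probes were. At an unadjusted p under 0.05 there was Cbln3, at 0.42 with Atm loss (adjusted p = 0.224, limma) and at -0.31 under NR in Atm-/- mice (adjusted p = 0.159, limma). Over all probes 14.6% passed that threshold with Atm loss and 27.3% under NR in Atm-/- mice. Of 19 reactive astrocyte genes 1 was called under NR in Atm-/- mice, Cd44 (0.58, adjusted p = 0.0115, limma), where 9.04% of all probes were. The median of the list was -0.35, and 16 of 19 were below 0, where 50.1% of probes were. Their summed level was 15.89, 15.90, 16.68 and 15.97 in Atm-/- veh and 15.77 to 15.86 in Atm-/- NR, the 16.68 being that of Atm-/- veh 3. The median of the list is not given without that array.

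Since C1q and C3ar1 are made by microglia, markers of that cell type were set beside them. Of 17 tested microglia markers, 2 were called in Atm-/- NR against Atm-/- veh, Gpr34 (0.76, adjusted p = 0.0301, limma) and Sall1 (0.97, adjusted p = 0.0426, limma), both higher, where 9.04% of all probes were called. Without single arrays Gpr34 kept its call in 12 of 16 fits (lost without Atm-/- veh 1 or 4 or Atm-/- NR 2 or 3) and Sall1 in 4 of 16 (WT veh 3 or 4, WT NR 1 or Atm-/- NR 4 left out), with limma's adjusted p up to 0.0954 and 0.114. Of the first 3 markers of the list, Aif1 was at 0.18 (adjusted p = 0.649, limma) and Cx3cr1 at 0.24 (adjusted p = 0.482, limma), and P2ry12 was not bright enough to be tested. The list had a median change of 0.04 with 9 of 17 above 0 and 8 below, such as Cd68 at -0.48 and Tmem119 at -0.34, against 0.036 for all named genes. The summed microglia level was 17.38 to 17.86 in Atm-/- veh and 17.34 to 17.72 in Atm-/- NR, against 17.35 to 17.75 in WT veh and 17.56 to 17.82 in WT NR. Taken relative to that sum on each array, C1qa was at -6.63 (SD 0.440) in Atm-/- veh and -7.14 (SD 0.241) in Atm-/- NR, C1qc at -5.91 (SD 0.433) and -6.37 (SD 0.308), and C3ar1 at -11.59 (SD 0.354) and -12.27 (SD 0.252), n = 4 each. For C3ar1 no Atm-/- NR array reached the lowest Atm-/- veh array on this scale (-12.04 against -11.90). Siglech alone made 55.2% to 76.8% of the sum, so the values were also taken relative to the sum of the other markers and to the mean of the log2 values of all 17, alternatives chosen after the data were seen. The NR difference in Atm-/- mice was -0.51 for C1qa on the first scale, -0.69 without Siglech and -0.73 against the mean. For C1qc it was -0.46, -0.64 and -0.68, for C1qb -0.16, -0.34 and -0.38, and for C3ar1 -0.68, -0.86 and -0.90. Relative to the sum of endothelial and mural markers it was -0.37 for C1qa, -0.32 for C1qc, -0.02 for C1qb and -0.54 for C3ar1. There the C3ar1 groups overlapped, with the highest Atm-/- NR array at -10.14 and the lowest Atm-/- veh array at -10.33. Without Siglech in the microglia sum the groups were apart for C1qa (-5.57 against -5.15) and C1qc (-4.64 against -4.41) as well, and not for C1qb. The share of all probes with groups apart is not given on these scales. Values without Atm-/- veh 3 are not given on these scales. The part of microglial number in the C1q and C3ar1 values was not tested.

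Over the 16 arrays, the microglia sum correlated with C3ar1 at r = 0.66 and with C1qa, C1qc and C1qb at 0.40, 0.34 and 0.23. Without Siglech the order turned, with 0.29 for C3ar1 and 0.65, 0.61 and 0.73 for the C1q chains. The sum of endothelial and mural markers correlated with the same genes at 0.67, 0.87, 0.90 and 0.84, and without its brightest gene, Ly6c1, at 0.42, 0.77, 0.83 and 0.72. These are descriptions over arrays that share their slides and normalisation, and Atm-/- veh 3 is high in most of these measures.

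For members detected on every array, the genes most like them over the 16 arrays were other complement genes only for C1q. Fcer1g, an Fc receptor chain of myeloid cells, was nearest to C1qa (r = 0.97) and second for C1qc (0.96), and Unc93b1 followed for C1qa (0.95). Adap2 (0.94) and Timp3 (0.91) joined C1qc as nearest to C1qb. C4b was nearest to Ddx58 (0.94), Vav1 (0.91) and the oncostatin M receptor Osmr (0.91). C3 was nearest to Ttc12 (0.89), Ccdc33 (0.85) and Sun5 (0.84), Serping1 to Slc6a20a (0.91), Myl12a (0.88) and Aloxe3 (0.86), and Cd59a to Was (0.79), Acy3 (0.77) and Ccl9 (0.76). These are the highest of 16737 named genes and carry no test. Atm-/- veh 3 was the highest array for 7 of 8 members, and the r of these nearest genes is not given without it.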

How the data were processed

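The authors deposited scanner files, 1 per array, in which the intensity of each spot has its local background subtracted by Agilent Feature Extraction 12.0.3.1 and is not normalised between arrays. They also deposited a table of scores (z-scores of log signals after quantile normalisation, rebuilt from the intensities to within 0.005, each column with a median of -0.15), used as an alternative. Labels give 1 mouse per array.

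Accessions were matched to RefSeq genes (GRCm38.p6, names only), naming 32994 of 56605 probes. A probe was kept if any group had it well above background on each of its 4 arrays. Log2 intensities of kept probes were quantile normalised, outlier spots removed and spots averaged, leaving 37253 probes of 16737 named genes. Comparisons of the 4 group means used limma 3.58.1 (R 4.3.3, 12 residual degrees of freedom), with Benjamini-Hochberg adjustment over all probes and calls at 0.05. The number of arrays limits the precision, and p-values measure the spread between these mice. The fit was tested on simulated data. The methods' t-test and rule were run on z-scores.

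Values of a gene are those of its brightest kept probe unless a dimmer one is named. All members were named, and from the other complement lists those called in any comparison and the 2 highest and 2 lowest changes in 3 comparisons. A gene that this rule names is not reported here. Nearest genes were the 3 with the highest r, and Cbln3, Cd44, Gpr34 and Sall1 were named after their values were seen. Members, lists and alternatives were chosen with earlier results of these data known. Alternatives were 75th percentile scaling, normexp (offset 50), deposited scores, no filter, only probes detected on all 16 arrays, leaving out arrays, only the groups compared, only the 12 arrays with Y-linked signal, a replicate block and the mean of a gene's probes. Leaving out arrays for other named genes, member medians without arrays and other scales of the microglia and vessel markers were added after seeing the data. Files were read with the data.table package, version 1.17.8.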

Additional observations from a re-analysis of the deposited data

Results flagged for a closer look

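A pair of members had an array far from the other 3 of its group (by the gap to the nearest array over the range of the group, past Dixon's limit for 4 samples). C1qb on Atm-/- veh 3 gave 0.916, at 11.15 against 10.25 for the next array. C4b on WT veh 4 gave 0.87, at 12.24 against 11.23, in the brighter probe. Chance gives about 1 in 20 groups, and 2 of the 48 groups checked were of this kind. Atm-/- veh 3 also had the highest C4b signal (13.23), and on WT veh 4 the summed level of 9 choroid plexus and ependyma markers was 18.24, against at most 14.22 on any other array. The part of these cells in the C4b value was not tested.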

How the results depend on the processing

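Of 987 member changes recomputed under alternatives, 921 kept their direction, 33 reversed (22 of them when an array was left out) and 33 were 0 at 2 decimals in the alternative or in the value set beside it. The other reversals were of values that were not called. Under 75th percentile scaling they were C3 (0.09, Atm loss) and C3ar1 (0.07, NR in WT). Over the 12 arrays with Y-linked signal they were C1qa (-0.10), C1qb (-0.10), C1qc (-0.08) and C4b (-0.53) for Atm loss, C4b for NR in Atm-/- (0.58) and for the difference of NR effects (0.30), and C3ar1 for NR in WT (0.01). With the mean of a gene's probes they were C4b for NR in Atm-/- (0.06) and for Atm-/- NR against WT NR (0.03). The cause was not tested. Leaving out each array in turn reversed other uncalled values. For Atm loss the ranges were -0.10 to 0.33 (C1qa), -0.10 to 0.25 (C1qb), -0.08 to 0.32 (C1qc), -0.12 to 0.07 (C3), -0.53 to 0.33 (C4b) and -0.31 to 0.03 (Serping1). For NR in Atm-/- it was -0.35 to 0.51 (C4b). For NR in WT they were -0.19 to 0.07 (C1qb), -0.13 to 0.18 (C3) and -0.17 to 0.06 (C3ar1), and for the difference of NR effects -0.54 to 0.32 (C4b) and -0.03 to 0.31 (Serping1). Leaving out Atm-/- veh 3 turned the C1q chains and C4b, and leaving out WT veh 1 or 3 also turned C4b. C3 turned without WT veh 1 or 2 or Atm-/- veh 1 or 4 (Atm loss) and without WT veh 3 or WT NR 2 or 4 (NR in WT), C1qb without WT veh 4 or WT NR 1, C3ar1 without WT veh 4 or WT NR 4, and Serping1 without Atm-/- veh 2 or Atm-/- NR 3.

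The count of members called in Atm-/- NR against Atm-/- veh was 1. It was 0 with normexp, with the arrays of only those groups, over the 12 arrays, with probe means and with the methods' t-test after adjustment. It was 0 of 7 with only probes detected on all 16 arrays, where C3ar1 was not tested. Of all probes, 3366 were called in the main fit, 3651 with normexp, 2521 with only those groups and 438 over the 12 arrays. Probe means gave 1866 calls, only probes detected on all 16 arrays 3748, and the adjusted t-test 3184. The count of members was 3 (C1qa, C3 and C3ar1) at the t-test's own threshold, where 26.9% of probes passed. Leaving out arrays gave 0 to 2, the other call being C1qa without WT veh 4 (adjusted p = 0.0478, limma) or Atm-/- veh 2 (adjusted p = 0.0393, limma). C3ar1 was called in 8 of 24 alternatives, with limma's adjusted p from 0.0194 to 0.118. In WT NR against WT veh the count of 0 became 1 (Serping1) at the t-test's threshold (6.65% of probes) and by the methods' rule (1.62% of probes). In the other comparisons the count was 0 in all alternatives run.

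Scaling to the 75th percentile moved the share of higher among probes at an unadjusted p under 0.05 from 48.5% to 36.7% for NR in Atm-/-, 48.7% to 63.1% for NR in WT, 51.2% to 76.8% for Atm loss and 55% to 25.2% for the difference of NR effects. The median of all probes moved by less than 0.1.

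Replicate numbers showed little sign of pairing the samples. In 24 pairs of groups and numbers the correlation ran from -0.33 to 0.37, with 6 over 0.1, and 2 of 16 arrays were nearest to their own number. The replicate number was also the column on the slide, so a replicate block is a block for column as well. With a replicate block 1 member (C3ar1, adjusted p = 0.0418, limma) was called in Atm-/- NR against Atm-/- veh and 0 elsewhere. A slide block was not run, since slide equals genotype.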
